A study of Homo sapiens with 10 samples.

Results

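The genes described here are 10 serine proteases and protease inhibitors known from the surface or interior of epithelial cells: the transmembrane proteases TMPRSS11E, TMPRSS2, TMPRSS4 and ST14, the lipid-anchored protease PRSS8, the Kunitz inhibitors SPINT1 and SPINT2, and the serpins SERPINB5, SERPINB1 and SERPINB9. They are 10 of the 60898 rows of the count file, matched by gene symbol, and each symbol stood on a single row. They were chosen from their high counts in the STAMBP knockout libraries against WT and their low counts in the rescue libraries. Differences between the knockout and the other groups are therefore a description of these libraries and carry no p-value.

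The 10 RNA-seq libraries came from neural progenitor cells derived from the established human line H1, which is embryonic stem cells. The groups were WT cells, the STAMBP-KO lines KO1 and KO2, STAMBP-KO cells with STAMBP (KO+STAMBP) and STAMBP-KO cells with CFLAR (KO+CFLAR), with 2 libraries each. STAMBP is a deubiquitinase of the endosomal sorting pathway, and CFLAR is an inhibitor of caspase-8 activation. The labels name no guide, promoter, passage or clone for these groups and leave it unstated whether KO1 or KO2 was the parent of each rescue, and the titles carry a P3 tag that is not explained. Whether the libraries of a group are separate cultures is not given, so p-values reflect no more than library-to-library spread, possibly a technical one. Each library held 16495116 to 20832700 counts.

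Levels are counts per 1000000 library counts (CPM), with library sizes scaled by the trimmed mean of M-values (TMM). STAMBP was at 16.9 to 19.5 CPM in the 4 knockout libraries and at 40.0 to 47.1 CPM in the other 6, including those labelled KO+CFLAR. CFLAR was at 246 to 264 CPM in the knockout and at 29.4 to 34.1 CPM in the other 6 libraries. The libraries labelled KO+CFLAR therefore showed neither the STAMBP level of the knockout nor a CFLAR level above WT, and every direction given for them rests on their labels.

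Surface serine proteases are made as inactive zymogens that cut themselves or one another at the membrane of polarised epithelia. Matriptase, encoded by ST14, and prostasin, encoded by PRSS8, act on each other and on substrates such as the epithelial sodium channel, protease-activated receptor 2, EPCAM and pro-hepatocyte growth factor. The Kunitz proteins SPINT1 and SPINT2 sit in the same membranes and block both enzymes, and the clade B serpins act mostly inside the cell. Most of these genes are known as epithelial genes and not as genes of neural progenitors.

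All 10 genes had their 4 highest CPM values in the 4 knockout libraries. Their log2 differences between KO and WT ran from 2.27 for TMPRSS2 to 11.45 for ST14, with a median of 6.99, beside a median of -0.04 over all 21063 genes tested. All 10 were called higher, where 36.8% of all tested genes were called higher. In KO+STAMBP vs KO all 10 were called lower with a median of -7.3, where 37.8% of all tested genes were called lower and 40.1% higher. In KO+CFLAR vs KO all 10 were called lower with a median of -6.8 (the same with TMPRSS11E at its bound, given below), where 38% of all tested genes were called lower and 40% higher. The choice of the genes fixed these counts, and nothing is read from them. A low-count filter precedes each test, and 4 of the 10 genes, SPINT1, SPINT2, SERPINB1 and SERPINB9, passed it without the knockout libraries. The other 6 passed only through their knockout counts. In bulk RNA, fewer cells of a type and less RNA per cell cannot be told apart.

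**Figure D1:**
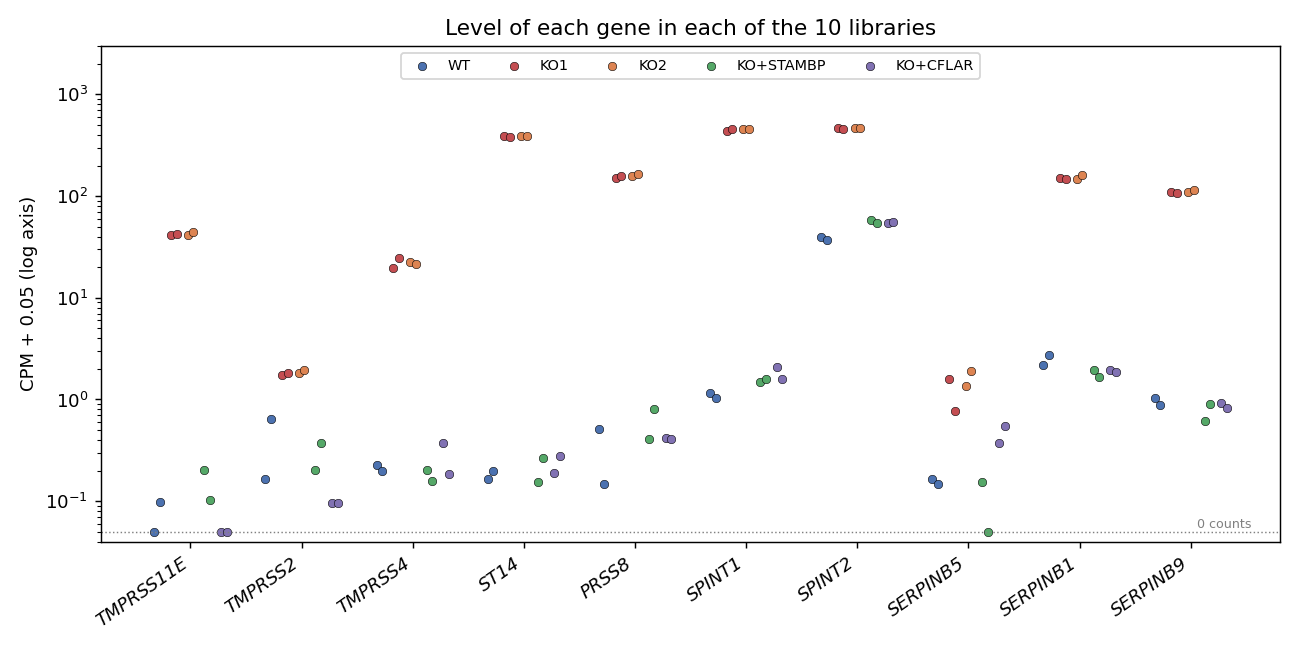
CPM plus 0.05 (log axis) of each of the 10 genes in each library, with 1 point per library and colours for the 5 groups. The knockout points lie above all others for every gene, by the widest margin for ST14 and the narrowest for SERPINB5, and SPINT2 is at 36.7 to 58.4 CPM outside the knockout.

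Promoters of these genes are shown because genes that were high in the same libraries began in windows of very different base composition. RefSeq windows of 300 bases, from 250 bases before to 50 bases after a start (GRCh38.p14), were matched for 5 of the 10 genes, with 6 windows in all, SPINT1 having 2. TMPRSS2, TMPRSS4, ST14, PRSS8 and SPINT2 were not matched. Capitals mark matches on either strand to 5 motifs spelled out after the sequences: a GC box, a TATA box, and the motifs of AP-1, of ZEB and SNAI factors (an E-box) and of GRHL factors. The windows of TMPRSS11E (chr4:68447213-68447512, plus strand), SPINT1 (chr15:40843798-40844097, plus strand) and SERPINB9 (chr6:2903260-2903559, minus strand) read 5′ to 3′:
TMPRSS11E: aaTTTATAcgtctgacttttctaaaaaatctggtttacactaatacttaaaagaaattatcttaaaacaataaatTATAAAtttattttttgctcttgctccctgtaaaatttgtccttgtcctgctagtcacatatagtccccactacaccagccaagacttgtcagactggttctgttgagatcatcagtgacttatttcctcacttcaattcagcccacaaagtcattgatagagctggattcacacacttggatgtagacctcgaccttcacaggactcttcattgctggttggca
SPINT1: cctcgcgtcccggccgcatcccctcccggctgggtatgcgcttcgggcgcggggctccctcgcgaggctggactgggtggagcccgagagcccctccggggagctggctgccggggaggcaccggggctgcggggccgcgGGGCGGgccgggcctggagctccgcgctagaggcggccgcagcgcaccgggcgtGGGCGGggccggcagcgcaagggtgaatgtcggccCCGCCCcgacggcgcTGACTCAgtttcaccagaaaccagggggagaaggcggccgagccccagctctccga
SERPINB9: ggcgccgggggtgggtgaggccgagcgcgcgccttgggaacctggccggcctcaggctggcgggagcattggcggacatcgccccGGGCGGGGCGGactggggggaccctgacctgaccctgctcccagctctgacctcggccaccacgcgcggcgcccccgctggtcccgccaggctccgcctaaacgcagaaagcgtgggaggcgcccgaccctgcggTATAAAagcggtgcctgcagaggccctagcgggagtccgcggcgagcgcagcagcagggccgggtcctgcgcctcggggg
The TMPRSS11E window was 37% G and C and held 2 CpG sites, against a median of 58.7% and 14 CpG sites over 34796 RefSeq promoters. The SPINT1 window shown was 77.7% G and C with 38 CpG sites, and the SERPINB9 window was 75.7% with 35. The SERPINB1 window, on the same chromosome as SERPINB9, was 65.7% with 27 CpG sites, and that of SERPINB5 was 59.7% with 16. In TMPRSS11E the capitals are TATA box matches alone. In SPINT1 they are 3 GC boxes and an AP-1 match starting at -6 from the start. In SERPINB9 they are 2 GC boxes that share 1 base and a TATA box match starting at -30. The GC box was searched as GGGCGG and was present in 4 of the 6 windows and in 44.9% of all promoters. The AP-1 motif, TGANTCA, was present in SPINT1 and SERPINB5 and in 7.73% of all promoters. The E-box, CAGGTG, was present in SERPINB5, in the SPINT1 window that is not shown, and in 20.6% of all promoters. The TATA box, TATAAA, was present in TMPRSS11E and SERPINB9 and in 11.6% of all promoters. The GRHL motif, AACCNGTT, was in none of the 6 windows and in 1.72% of all promoters. Matches to different motifs overlapped in none of the 6 windows. A match describes letters only.

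ST14 (ENSG00000149418, chr11:130159562-130210376, plus strand, GRCh38) encodes matriptase, the protease at the head of this surface cascade. It had 7133 and 5901 counts in the KO1 libraries, 5963 and 6819 in KO2, 2 and 3 in WT, 2 and 4 in KO+STAMBP, and 3 and 5 in the libraries labelled KO+CFLAR. The gene was thus near 0 in all 6 other libraries and was at 390.9 ± 4.6 CPM (SD, n = 4) in the knockout. KO lay 11.45 above WT on the log2 scale, and the SE of the fit, 0.10, is smaller than the counting error of so few WT counts. From summed counts the ratio was 2950, with a 95% interval of 1260 to 9070 that covers counting error only, as do all such intervals here.

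PRSS8 (ENSG00000052344, chr16:31131433-31135762, minus strand) encodes prostasin, which is held in the membrane by a glycolipid anchor and raises the activity of the epithelial sodium channel. It had 2766 and 2428 counts in KO1, 2370 and 2830 in KO2, 8 and 2 in WT, 7 and 14 in KO+STAMBP, and 8 and 8 in the libraries labelled KO+CFLAR. No library outside the knockout came near the lowest knockout library. The knockout mean was 157.5 ± 4.6 CPM (SD, n = 4), 9.18 above WT on the log2 scale (summed-count ratio 593, interval 322 to 1240). An antisense gene, AC009088.3, overlaps PRSS8 by 445 bases, and without a stated strand setting their reads cannot be told apart.

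TMPRSS11E (ENSG00000087128, chr4:68447449-68497604, plus strand), a member of the trypsin-like protease cluster on chromosome 4, was almost absent outside the knockout. Its counts were 761 and 651 in KO1, 630 and 773 in KO2, 0 and 1 in WT, 3 and 1 in KO+STAMBP, and 0 in both libraries labelled KO+CFLAR. The ratio of summed counts between KO and WT was 1610 with an interval of 288 to 63500. Against the libraries labelled KO+CFLAR the knockout was at least 619-fold higher, taking 3 counts over the group as the floor.

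TMPRSS4 (ENSG00000137648, chr11:118077012-118121890, plus strand), a transmembrane protease of many carcinomas, had 357 and 378 counts in KO1 and 341 and 371 in KO2. In the other libraries it had 3 and 3 counts in WT, 3 and 2 in KO+STAMBP, and 7 and 3 in those labelled KO+CFLAR. The log2 difference of KO from WT was 7.05 (summed-count ratio 138, interval 63.1 to 376). SMIM35 overlaps TMPRSS4 on the other strand by 11288 bases and ran the other way, with 0 to 2 counts in the knockout and 4 to 24 in the other libraries. Reads of the pair cannot be told apart where they overlap.

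TMPRSS2 (ENSG00000184012, chr21:41464551-41531116, minus strand), which cuts surface proteins of respiratory viruses, was the protease with the lowest level per kb in the knockout. It had 31 and 27 counts in KO1, 27 and 33 in KO2, 2 and 12 in WT, 3 and 6 in KO+STAMBP, and 1 and 1 in the libraries labelled KO+CFLAR. The knockout libraries did not overlap the others, and the WT libraries differed widely from each other. KO was 2.27 ± 0.51 (SE) above WT on the log2 scale, and the summed-count ratio of KO to the libraries labelled KO+CFLAR was 38.9 with an interval of 10.5 to 325.

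SPINT1 (ENSG00000166145, chr15:40844018-40858207, plus strand) encodes hepatocyte growth factor activator inhibitor type 1, the Kunitz partner of matriptase. It had 8019 and 6985 counts in KO1, 6853 and 7901 in KO2, 19 and 20 in WT, 28 and 29 in KO+STAMBP, and 44 and 34 in the libraries labelled KO+CFLAR. WT was lowest, the rescue groups stood a little above it and the knockout far above both. The knockout spread was narrow, 451.0 ± 6.8 CPM (SD, n = 4). The difference from WT was 8.76 on the log2 scale (summed-count ratio 435, interval 318 to 612). The antisense gene SPINT1-AS1, which overlaps SPINT1 by 370 bases, had 58 to 81 counts in the knockout libraries and 0 to 2 in the others. Without a stated strand setting, reads of this pair cannot be told apart where they overlap.

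SPINT2 (ENSG00000167642, chr19:38244035-38292614, plus strand), which encodes the related type 2 inhibitor, was the exception among the 10 genes because every library held at least 684 of its counts. It was at 464 and 455 CPM in KO1, 465 and 469 CPM in KO2, and 39.8 and 36.7 CPM in WT. KO+STAMBP stood at 58.4 and 54.7 CPM and the libraries labelled KO+CFLAR at 53.8 and 55.7 CPM. The values fell into 3 tiers that did not overlap: WT lowest, both rescue groups next, and the knockout highest. KO was 12.1-fold above WT, a log2 difference of 3.60 ± 0.05 (SE). Both PPP1R14A and AC011479.1 overlap SPINT2. AC011479.1 does so on the same strand over 3464 bases, where reads cannot be assigned to either gene with certainty. PPP1R14A had 28 to 34 counts in the knockout and 2 to 15 elsewhere, against 6996 to 8443 for SPINT2 in the knockout.

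SERPINB1 (ENSG00000021355, chr6:2832332-2842006, minus strand) inhibits neutrophil serine proteases such as elastase and cathepsin G. It had 2731 and 2245 counts in KO1, 2230 and 2791 in KO2, 37 and 55 in WT, 37 and 30 in KO+STAMBP, and 41 and 40 in the libraries labelled KO+CFLAR. WT was the group with the higher values outside the knockout, and KO was 61.8-fold above it (log2 5.95, interval of the summed-count ratio 50.5 to 77).

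SERPINB9 (ENSG00000170542, chr6:2887266-2903280, minus strand) inhibits granzyme B. It had 1989 and 1645 counts in KO1, 1669 and 2003 in KO2, 17 and 17 in WT, 11 and 16 in KO+STAMBP, and 19 and 17 in the libraries labelled KO+CFLAR. The groups outside the knockout overlapped, and KO was 6.93 above WT on the log2 scale (summed-count ratio 123, interval 87.7 to 177). Its pseudogene copy SERPINB9P1 had 299 to 382 counts in the knockout and 3 to 10 elsewhere, so reads may be split between the pair and the SERPINB9 level is uncertain to that extent.

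SERPINB5 (ENSG00000206075, chr18:63476761-63505085, plus strand), maspin, is a clade member without known protease inhibition. It was the lowest of the 10 genes per kb in the knockout, with 28 and 11 counts in KO1, 20 and 32 in KO2, 2 and 2 in WT, and 2 and 0 in KO+STAMBP. The libraries labelled KO+CFLAR had 7 and 11 counts, so the highest of them equalled the lowest knockout library in counts. In CPM the groups did not overlap, at 0.716 in KO1 replicate 2 and 0.498 in KO+CFLAR replicate 2. The log2 difference of KO from WT was 3.58 ± 0.68 (SE), and the summed-count ratio of KO to KO+STAMBP was 26.3 with an interval of 7.07 to 220.

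Levels of different genes were compared per kb of the principal transcript. In the knockout the order was SPINT2 at 257 CPM per kb, SPINT1 at 148, ST14 at 110, PRSS8 at 84.1, SERPINB1 at 57.7, SERPINB9 at 26.9, TMPRSS11E at 19.9, TMPRSS4 at 6.24, TMPRSS2 at 0.558 and SERPINB5 at 0.487. Neighbours in this order did not overlap over the 4 knockout libraries, apart from TMPRSS2 and SERPINB5. The top of the order depends on the length used. With the merged length of all annotated exons, SPINT1 led at 127 CPM per kb, followed by ST14 at 89.9 and SPINT2 at 89.1, and SERPINB5 stood above TMPRSS2.

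The makeup of the summed level of the 10 genes differed between the knockout and the rest. SPINT2 made up 91.4 to 92.3% of the sum in WT, 94.0 to 94.8% in KO+STAMBP, 93.5 to 94.3% in the libraries labelled KO+CFLAR, and 35.9 to 36.6% in the knockout. The ratio of the 2 Kunitz inhibitors to the 5 proteases, per kb, was 1.81 to 1.85 in the knockout and 60.7 to 61.1 in WT. It was 50.2 to 85.1 in KO+STAMBP and 88.4 to 101 in the libraries labelled KO+CFLAR. Proteases summed to only 15 to 27 counts in each library outside the knockout, against 9331 to 11048 in the knockout, so the ratios outside it rest on few reads. With all annotated exons the ratio was 1.30 to 1.32 in the knockout and 36.5 to 36.7 in WT. In either case inhibitor RNA stood above protease RNA in all 10 libraries.

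**Figure D2:**
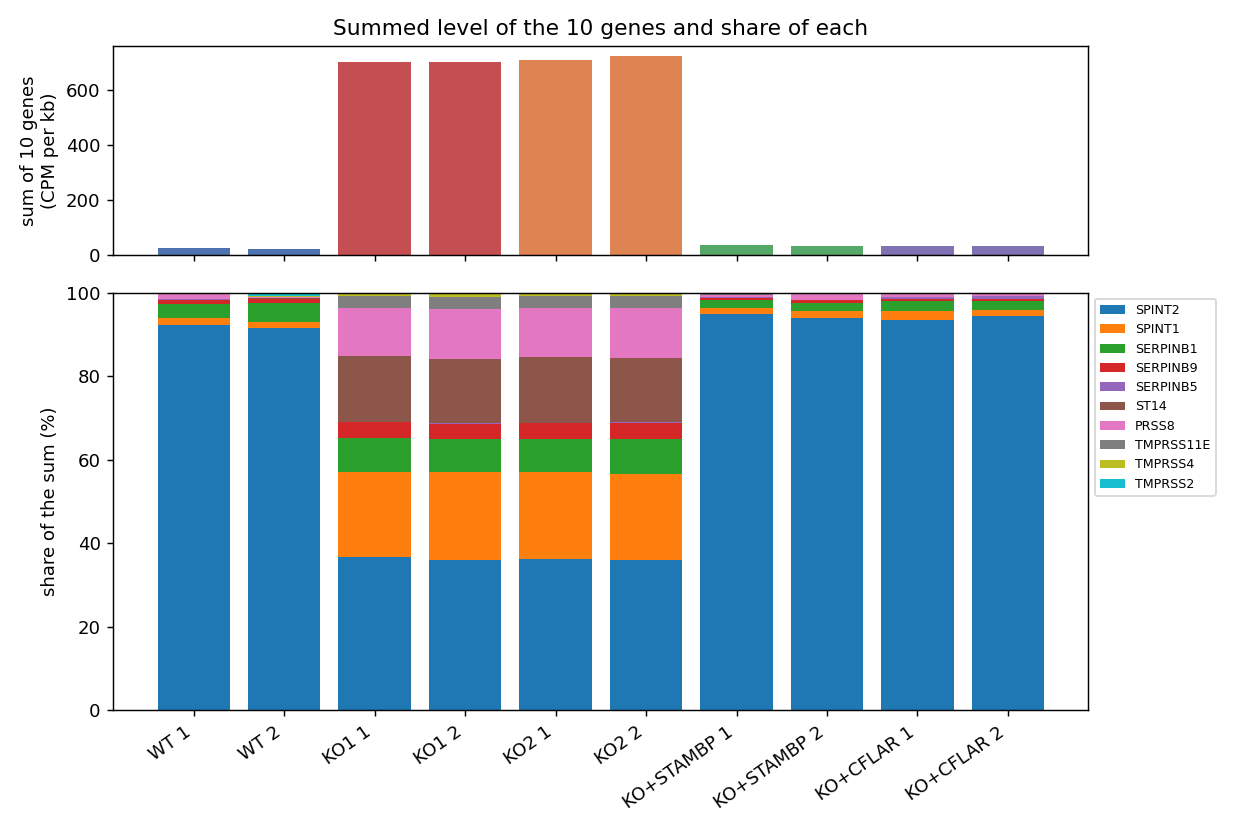
The upper bars give the sum of the 10 genes in each library in CPM per kb of principal transcript, and the lower bars give the share of each gene in that sum in percent. SPINT2 fills at least 91.4% of each bar outside the knockout and 35.9 to 36.6% in the 4 knockout libraries, where SPINT1, ST14 and PRSS8 take most of the rest.

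The rescue groups were then compared with WT. These comparisons share the WT libraries with the contrast on which the genes were chosen. Tests are given for the 4 genes that pass the filter without the knockout libraries. The other 6 were admitted through the group that chose them, so their counts above stand without a test. In KO+STAMBP vs WT, 1 of the 4 genes was called, SPINT2, where 16.4% of all tested genes were called higher and 18.5% lower. SPINT2 rose 1.48-fold, a log2 change of 0.57 ± 0.05 (SE, n = 2 against 2, adjusted p = 1.44e-06 by edgeR's quasi-likelihood test with Benjamini-Hochberg adjustment). Both KO+STAMBP libraries lay above both WT libraries, and the call held in 18 of 18 alternatives. SPINT1 was 0.53 ± 0.24 (SE) above WT on the log2 scale with an edgeR adjusted p of 0.162. SERPINB9 was at -0.35 ± 0.30 (SE, edgeR adjusted p = 0.502).

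In KO+CFLAR vs WT, 2 of the 4 genes were called higher and none lower, where 15.8% of all tested genes were called higher and 17.9% lower. SPINT2 rose 1.43-fold (log2 0.52 ± 0.05, SE, edgeR adjusted p = 3.13e-06), again in 18 of 18 alternatives. SPINT1 rose 1.72-fold (log2 0.79 ± 0.22, SE, edgeR adjusted p = 0.0157), and both libraries labelled KO+CFLAR lay above both WT libraries. That call was made in 14 of 18 alternatives: the edgeR adjusted p was 0.14 without WT replicate 2, 0.221 without KO+CFLAR replicate 1, 0.0947 with only the groups compared and 0.0765 without the knockout libraries.

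For SERPINB1 the log2 difference of KO+STAMBP from WT was -0.47 ± 0.21 (SE, edgeR adjusted p = 0.106). In the libraries labelled KO+CFLAR it differed from WT by -0.39 ± 0.20 on that scale (edgeR adjusted p = 0.166), and SERPINB9 by -0.13 ± 0.28 in those libraries (edgeR adjusted p = 0.824).

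**Figure D3:**
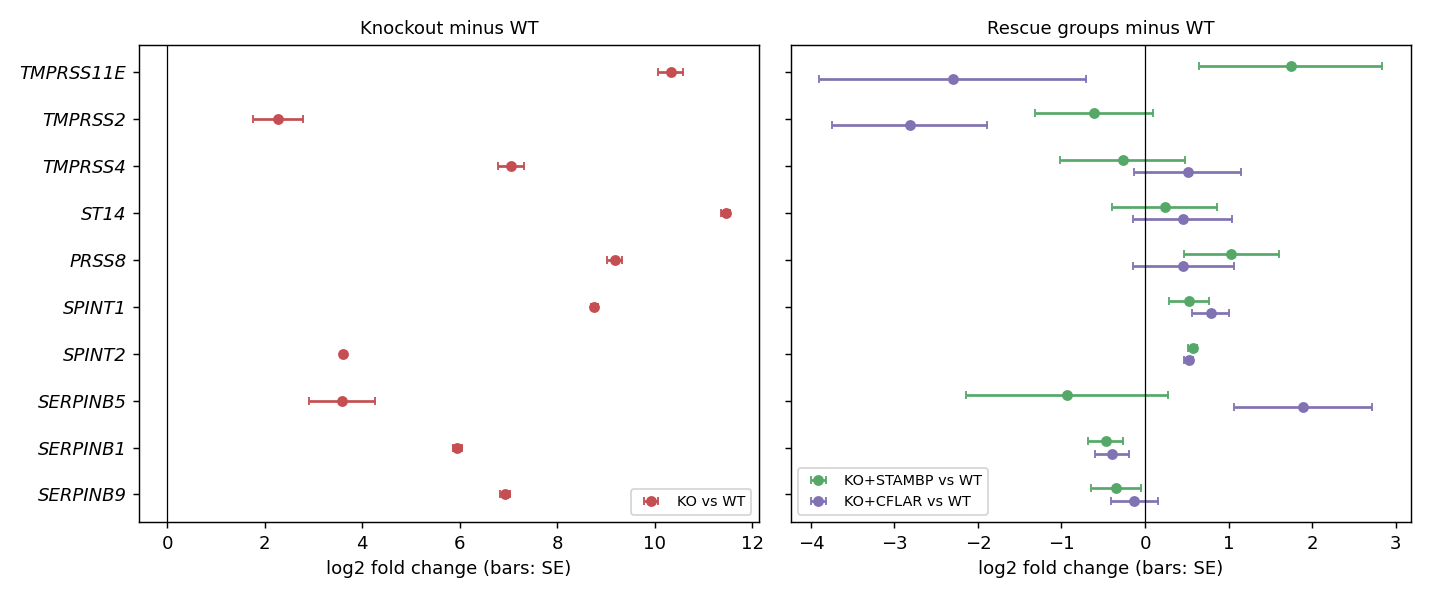
Log2 fold changes of the 10 genes with bars of 1 SE, on the left for KO vs WT and on the right, on a narrower axis, for KO+STAMBP vs WT and KO+CFLAR vs WT. Bars on the left can be shorter than counting error where WT had few counts, as for ST14. All 10 points on the left lie between 2.27 and 11.45, while on the right SPINT2 has short bars on the same side of 0 in both groups and the genes with few counts have wide bars.

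The rescue groups were compared with each other, which the choice of the genes did not use. KO+CFLAR vs KO+STAMBP called 0 of the same 4 genes with edgeR, where 1.09% of all tested genes were called in either direction. At an unadjusted p under 0.05 there were 0 of the 4, and DESeq2 called 0 of them. SPINT2 differed by -0.05 ± 0.05 (SE) on the log2 scale and SPINT1 by 0.26 ± 0.20. Of all genes called, 57.6% were higher in the libraries labelled KO+CFLAR, and 47% with scaling by library size alone.

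The knockout lines were also compared with each other. KO1 vs KO2 called 0 of the 10 genes with edgeR, and 0.157% of all tested genes in either direction, so 0 of 10 says little about these genes. Of the 10, 6 passed the filter only through these knockout libraries. None of the 10 had an unadjusted p under 0.05, and DESeq2 called 0. The log2 differences were -0.02 ± 0.04 (SE) for ST14, -0.02 ± 0.04 for SPINT1, -0.05 ± 0.06 for PRSS8 and -0.04 ± 0.09 for TMPRSS11E. SERPINB5 had the widest error, -0.48 ± 0.52, followed by TMPRSS2 at -0.09 ± 0.47, and the other 8 genes had standard errors of at most 0.14.

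Markers of other cell types were set beside these genes. Their counts of rises and falls in KO vs WT stand beside 36.8% of all tested genes called higher and 39.4% lower. The summed level of 9 epithelial markers (EPCAM, CDH1, KRT8, KRT18, KRT19, CLDN4, CLDN7, GRHL2 and ESRP1) was 7949 to 8401 CPM in the knockout libraries, 31.6 to 33.5 in WT, 60.9 to 62.9 in KO+STAMBP and 53.3 to 55.6 in the libraries labelled KO+CFLAR, and all 9 rose in KO vs WT. The 10 neural progenitor markers summed to 3455 to 3490 CPM in the knockout, 5007 to 5223 CPM in WT and 2716 to 2804 CPM in the 4 rescue libraries, and none of the 10 was at 0 in any group. Of them 7 fell and 2 rose in KO vs WT. VIM, at 2257 CPM, made up most of the knockout sum. From WT to the knockout, mean FABP7 went from 1123 to 0.445 CPM, SOX1 from 147 to 0.479 CPM and SOX2 from 297 to 28.4 CPM. Others changed little: mean PAX6 went from 181.3 to 208.1 CPM, HES1 from 54.25 to 61.8 CPM and NES from 773.2 to 659.9 CPM. The 8 neuron markers summed to 820 to 843 CPM in the knockout, 3389 to 3456 CPM in WT and 4370 to 4529 CPM in the rescue libraries, and all 8 fell. The 7 leukocyte markers (PTPRC, CD3E, CD14, LYZ, NKG7, CSF1R and TYROBP) summed to 19.3 to 22.6 CPM in the knockout, 1.42 to 1.51 CPM in WT, where CD3E and TYROBP were at 0, and 2.51 to 3.31 CPM in the 4 rescue libraries. Of the 3 that passed the filter, CSF1R and LYZ rose, and PTPRC, found on all leukocytes, fell from 0.321 to 0.0944 CPM (edgeR adjusted p = 0.0384). CSF1R, at 15.5 CPM, made up most of the knockout sum. The 8 trophoblast and amnion markers summed to 359 to 369 CPM in the knockout, 41.6 to 45.6 CPM in WT, where CGA and CGB5 were at 0, and 44.5 to 50.2 CPM in the rescue libraries. Of 7 that passed, 5 rose and 2 fell, TFAP2C (39.8 to 28.6 CPM) and ISL1 (0.964 to 0.308 CPM). The 6 mesenchyme and neural crest markers summed to 1018 to 1074 CPM in the knockout, 31.2 to 31.6 CPM in WT and 42.1 to 48.9 CPM in the rescue libraries. COL1A1, a collagen gene, had a mean of 1029 CPM in the knockout and 6.63 CPM in WT, and of the 4 that passed 2 rose and 1 fell. The 5 endothelial markers summed to 29.9 to 31.9 CPM in the knockout, 8.55 to 9.38 CPM in WT and 4.05 to 6.52 CPM in the rescue libraries, with 3 higher and 1 lower. The 5 pluripotent stem cell markers summed to 23.2 to 26.8 CPM in the knockout, 2.15 to 3.08 CPM in WT and 1.41 to 2.61 CPM in the rescue libraries, and of the 3 that passed 2 rose. FOXD3 was at 0 in WT and KO+STAMBP, and CDH5 was at 0 in both rescue groups. Single markers were named after their values were seen. The part of such cells in the values of the 10 genes was not tested.

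The wider families were taken from lists of their known members, and counts below leave out the 10 genes. These lists, like the 10 genes, were chosen with earlier results of these data known. Their KO vs WT counts and p-values are therefore a description. List genes with almost no counts outside the knockout, such as KLK6, KLK8 and TMPRSS11F, passed the filter through their knockout counts. Such genes could only come out higher. Among 13 other type II transmembrane proteases, 8 passed the filter, of which 6 rose and 1 fell in KO vs WT, where 36.8% of all tested genes were called higher and 39.4% lower. TMPRSS13, a protease of stratified epithelia, rose from 3.77 ± 0.48 CPM (SD, n = 2) to 16.2 ± 2.0 CPM (n = 4). Its level in KO+STAMBP was also above WT (log2 1.39 ± 0.17, SE, edgeR adjusted p = 1.51e-05), as was that of the libraries labelled KO+CFLAR (log2 1.47 ± 0.17, edgeR adjusted p = 7.28e-06). TMPRSS11F had 0 counts in WT and 628 in the knockout, at least 119-fold higher. TMPRSS3, needed for hearing, had 4 counts in WT and 411 in the knockout (summed-count ratio 58.6, interval 22.7 to 216). TMPRSS5, known from the nervous system, went the other way, from 10.5 ± 0.9 CPM (n = 2) in WT to 0.342 ± 0.093 CPM (n = 4) in the knockout (log2 -4.90 ± 0.23, SE, edgeR adjusted p = 6.42e-11). TMPRSS5 was also below WT in KO+STAMBP (log2 -0.97 ± 0.19, edgeR adjusted p = 0.00115).

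Of 5 other glycolipid-anchored or related proteases, relatives of PRSS8, 3 had at most 2 counts in any group. The 2 that passed the filter fell, as did 39.4% of all tested genes. PRSS27 went from 6.81 ± 0.18 CPM (SD, n = 2) in WT to 4.94 ± 0.40 CPM (n = 4) in the knockout (log2 -0.46 ± 0.14, SE, edgeR adjusted p = 0.00946). That call was lost without WT replicate 2 (log2 -0.43, edgeR adjusted p = 0.0589) and with DESeq2 (adjusted p = 0.102). TPSG1 had 19 counts in WT and 2 in the knockout, a ratio of 0.0601 of KO to WT with an interval of 0.00678 to 0.249. Of 12 secreted kallikreins, trypsin-like proteases of skin and glands, 6 passed and 5 of these rose, where 36.8% of all tested genes were called higher. These 5 had few counts outside the knockout and passed the filter through it, so their direction was fixed. KLK6 had 1071 counts in the knockout and 0 in WT, at least 204-fold higher, and KLK8 had 86 and 0, at least 16.4-fold higher, while KLK14 was 0.63 ± 0.74 (SE) from WT with an edgeR adjusted p of 0.453.

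Among 9 other genes with Kunitz domains, 6 passed the filter, 4 rose and 1 fell, beside 36.8% higher and 39.4% lower over all tested genes. TFPI2, a secreted Kunitz inhibitor of plasmin, rose from 1.19 ± 0.12 CPM (SD, n = 2) to 140.3 ± 10.5 CPM (n = 4). TFPI, which blocks tissue factor, rose from 14.8 ± 2.2 to 140.8 ± 6.7 CPM and fell below WT in KO+STAMBP (log2 -1.77 ± 0.16, SE, edgeR adjusted p = 9.04e-07). APP and APLP2, membrane proteins of neurons and other cells of which some isoforms carry a Kunitz domain, rose 0.64 ± 0.03 and 1.47 ± 0.03 (SE) on the log2 scale. WFIKKN2, named after its values were seen, was the gene that fell.

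Among 10 other clade B serpins, 6 passed the filter and 5 rose, beside 36.8% called higher over all tested genes. SERPINB2, an inhibitor of urokinase, rose from 0.306 ± 0.225 CPM (SD, n = 2) to 259.9 ± 8.8 CPM (n = 4). The log2 change was 9.76 (summed-count ratio 890, interval 497 to 1780). SERPINB7 rose from 0.171 ± 0.242 to 24.9 ± 1.7 CPM. SERPINB8 rose 2.51 ± 0.11 and SERPINB6 0.80 ± 0.06 (SE) on the log2 scale, and both then lay below WT in KO+STAMBP (log2 -1.53 ± 0.18 and -1.10 ± 0.07, edgeR adjusted p = 1.02e-05 and 3.98e-08). SERPINB6, the neighbour of SERPINB1 and SERPINB9 on chromosome 6, was at 36.8 ± 2.3 CPM (SD, n = 2) in WT.

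Clade B serpin genes lie in clusters on 2 chromosomes, whose genes are given by position and were named after their values were seen. The 3 genes on chromosome 6 span 140 kb, and all 3 were higher in the knockout, as were 36.8% of all tested genes. The 10 genes on chromosome 18 span 543 kb, of which 5 were higher, 1 was not called and 4 were too low to test. Within that cluster, SERPINB2 had 3949 to 4680 counts and SERPINB7 352 to 449 counts in the knockout libraries. Between SERPINB5 and SERPINB7 lie SERPINB12, SERPINB13, SERPINB4, SERPINB11 and SERPINB3, each at 0 to 17 counts in every library. SERPINB3 and SERPINB4 are near-identical copies, so reads may be split between them. On chromosome 4, TMPRSS11A, TMPRSS11F and TMPRSS11E were higher in the knockout, while TMPRSS11D and TMPRSS11B, beside and between them, had at most 8 and 5 counts in any library.

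**Figure D4:**
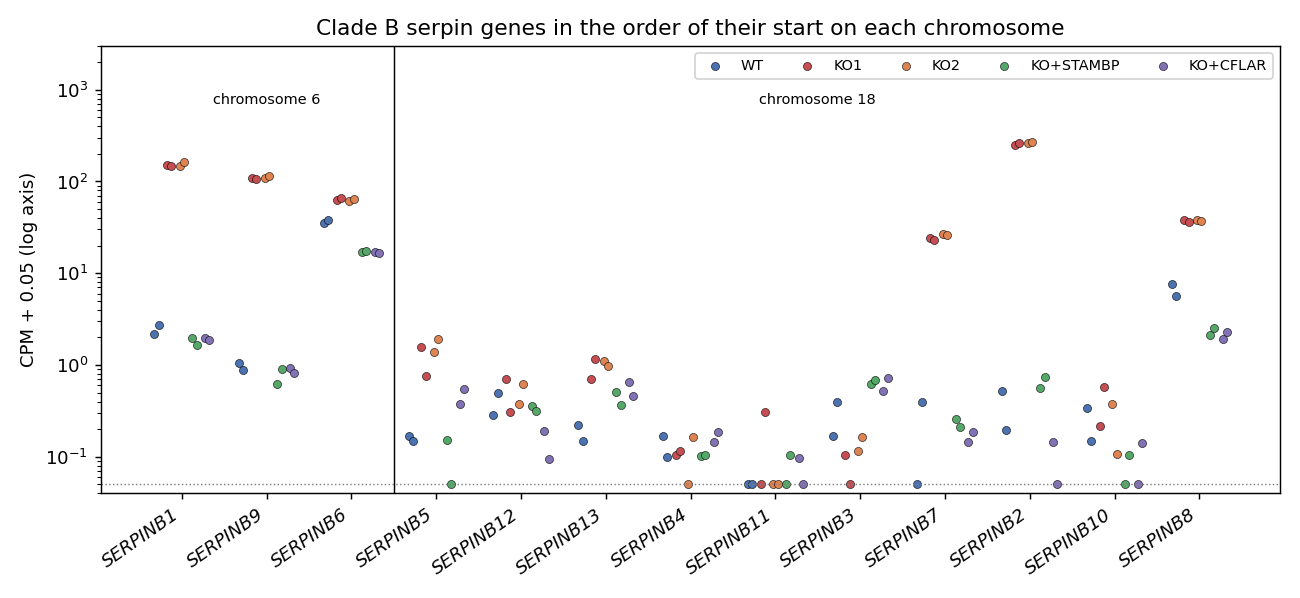
CPM plus 0.05 (log axis) of the clade B serpin genes in the order of their starts on chromosomes 6 and 18, with 1 point per library and colours for the 5 groups. The knockout points of SERPINB1, SERPINB9, SERPINB7, SERPINB2 and SERPINB8 lie well above all others. Those of SERPINB12, SERPINB4, SERPINB11 and SERPINB10 overlap other libraries near the bottom of the axis. SERPINB3, not called in KO vs WT, lies there too, with 0 to 2 counts in the knockout libraries and 2 to 15 in the others.

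Of 12 serpins of other clades 10 passed the filter, 5 rose and 4 fell, near the 36.8% higher and 39.4% lower over all tested genes. SERPINH1, a collagen chaperone, rose 0.87 ± 0.04 (SE) on the log2 scale, and SERPING1, the complement C1 inhibitor, rose 0.47 ± 0.06 (SE). SERPINE2, a thrombin inhibitor of neural tissue, fell by 0.41 on the log2 scale (SE 0.06, edgeR adjusted p = 3e-05). SERPINF1 rose 0.65 ± 0.06 (SE) in the knockout and stood higher still in KO+STAMBP, at 55.1 ± 3.3 CPM (SD, n = 2) against 46.6 ± 1.3 CPM (n = 4). Of 9 Kazal and WAP inhibitors 3 passed: WFDC2 and SLPI rose, and SPINK5, the inhibitor of skin kallikreins, fell by 0.42 on the log2 scale (SE 0.09, edgeR adjusted p = 0.000548). A fall was called for 39.4% of all tested genes. The directions of KLK6, KLK8 and KLK10 were fixed by their few counts outside the knockout, so SPINK5 is not set against them.

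Substrates and receptors of the surface proteases were measured in the same way. Of 16 genes 15 passed the filter, 12 rose and 3 fell in KO vs WT, where 36.8% of all tested genes were called higher and 39.4% lower. PLAU, the urokinase zymogen that matriptase can activate, rose from 2.28 ± 0.02 CPM (SD, n = 2) to 2787 ± 60 CPM (n = 4). Its log2 change was 10.25 (summed-count ratio 1220, interval 988 to 1530). The receptor gene PLAUR rose from 5.74 ± 0.80 to 223.3 ± 2.5 CPM. F2RL1, which encodes protease-activated receptor 2, rose 7.28 on the log2 scale, EPCAM 7.13 and F3, tissue factor, 3.82 ± 0.06 (SE). The summed-count ratio was 157 for F2RL1 (interval 124 to 202) and 140 for EPCAM (interval 106 to 189). F2R, the thrombin receptor, was 0.11 ± 0.04 above WT (edgeR adjusted p = 0.014), which turned to -0.07 when libraries were scaled by size alone. That call was lost without a low-count filter (log2 0.08, edgeR adjusted p = 0.156). It was also lost without WT replicate 1 (log2 0.09) and without WT replicate 2 (log2 0.12). The 3 that fell were HGF, MST1 and HGFAC, named after their values were seen, which encode the secreted growth factors and activator that lie upstream of the receptors MET and MST1R.

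EPCAM lay above WT in both rescue groups, by 0.91 ± 0.21 (SE) in KO+STAMBP (edgeR adjusted p = 0.00365) and 1.09 ± 0.20 in the libraries labelled KO+CFLAR (edgeR adjusted p = 0.000634). F2RL1 was 0.98 ± 0.29 above WT in KO+STAMBP (edgeR adjusted p = 0.0169), but 0.45 with an edgeR adjusted p of 0.246 without WT replicate 2, 0.0509 without KO+STAMBP replicate 1 and 0.0787 without KO+STAMBP replicate 2.

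The protease targets of the serpins were mostly too low to test. Of 12 genes for neutrophil and lymphocyte proteases, perforin (PRF1, not a protease), cathepsins and caspases, 4 passed the filter: CTSL, CASP4, CTSS and CASP1. All 4 were higher in the knockout, as were 36.8% of all tested genes. CTSL, a lysosomal cathepsin, rose from 28.1 ± 0.5 CPM (SD, n = 2) to 103.9 ± 5.0 CPM (n = 4), and CTSS rose 4.58 ± 0.22 (SE) on the log2 scale. CASP4, an inflammatory caspase, had 0 counts in WT and 2641 in the knockout. The granzymes, ELANE, PRTN3 and CTSG, enzymes against which SERPINB1 and SERPINB9 are best known, did not pass, and GZMM, named after its values were seen, had the most counts of them, at most 12 in a library.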

How the data were processed

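Values are read counts, whole numbers without normalization, which the authors deposited for 60898 gene rows in 10 libraries, made from 1 µg of RNA with an Illumina TruSeq kit per the labels. In the submitters' processing notes stand fastp 0.20.0, DESeq2, RSEM 1.2.4 and the names GRCh38 and hg38, without their roles. The annotation, the strand setting and any rounding of RSEM estimates are not given in the sources used here.

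The 10 genes and the family lists were chosen with earlier results of these data known. From the deposited counts, edgeR 4.0.16 in R 4.3.3 was fitted with TMM factors, filterByExpr and a mean per group in a single fit of the 10 libraries (5 residual degrees of freedom). It tested 21063 genes, which held 99.9% of the counts, and called genes at a Benjamini-Hochberg adjusted p under 0.05. KO is the mean of KO1 and KO2 with equal weight. The SE of a log2 change is its size over the square root of F. In KO vs WT this SE can be smaller than counting error alone where a group had few counts. The fit was tested on simulated data. Comparisons of the knockout with other groups carry no p for the 10 genes, since these chose them. Beyond the 10, the text names per list the 4 tested genes with the highest mean CPM (6 for substrates and receptors), and says where others were named after their values were seen. Some list genes are not reported here. Groups with few counts are given as ratios of summed counts with exact 95% intervals, or against a floor of 3 counts over the group. Positions and lengths come from GENCODE release 29 (GRCh38). Replicate numbers did not pair the libraries: over 10 pairs of groups, same-numbered libraries had correlations of deviations of -0.02 to 0.07. Library pairs differed beyond counting noise, by 1.94 to 3.51 chi-square units per gene.

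Alternatives were DESeq2 1.42.0, median-of-ratios factors, library size alone, no filter, at least 50 counts in 2 libraries, only the groups compared, a replicate block, leaving out each library, and each knockout line alone. A fit without the knockout libraries was added after the data were seen.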

Additional observations from a re-analysis of the deposited data

How the results depend on the processing

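The median log2 difference of the 10 genes kept its direction in every alternative run. For KO vs WT it was 6.81 with library size alone, 7.92 with at least 50 counts in 2 libraries (8 genes tested), and 6.86 to 7.09 with each library left out. For KO+STAMBP vs KO it was -7.09, -7.73 and -7.61 to -7.25 in the same order, and for KO+CFLAR vs KO -6.6, -7.52 and -7.2 to -6.63. Scaling by library size alone shifted the median of all tested genes by -0.18 in KO vs WT, 0.21 in KO+STAMBP vs KO and 0.2 in KO+CFLAR vs KO.

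Of the 10 genes, 1 to 2 were called in KO+STAMBP vs WT and 1 to 3 in KO+CFLAR vs WT with each library left out, counting 6 that are tested only through their knockout counts. These ranges include calls of TMPRSS2 and PRSS8, which are among those 6. The 6 have no valid test here, so nothing is read from the ranges. KO+CFLAR vs WT called 1 of the 4 that could be tested with only the groups compared. It called 1 of 4 without the knockout libraries, where fewer genes passed the filter. Over all genes, KO+CFLAR vs KO+STAMBP called 229, 780 without a filter and 27 to 313 with a library left out, and KO1 vs KO2 called 33, 251 and 20 to 58; the cause was not tested. With the replicate number as a block, 7331, 7121, 301 and 30 genes were called in KO+STAMBP vs WT, KO+CFLAR vs WT, KO+CFLAR vs KO+STAMBP and KO1 vs KO2, and no call of those 4 genes changed. F2R in KO vs WT reversed to -0.07 with library size alone. Of the other named genes' results, 77 lost their call and 7 gained one, among 2599 recomputed values. Few counts limit the genes outside the knockout, where 6 of the 10 fail the filter.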
